A study of Mus musculus with 12 samples.

Results

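The FoxO transcription factors Foxo1, Foxo3 and Foxo4 and 7 genes known as their targets or partners in insulin signalling were followed at the RNA level in the mouse macrophage-like line J774.1, of BALB/c origin. The members were the rows named Foxo1, Foxo3, Foxo4, Pik3ip1, Irs2, Bcl6, Sesn3, Insr, Txnip and Ccng2, 10 of the 25683 genes in each count table. Of these, 9 had an exon read in at least 1 of 12 libraries and 8 had enough reads to be tested. Irs2 and Sesn3 were not tested. Unedited cells (WT) and lines labelled rictor-KO and GATA3-KO were exposed for 6 h to the solvent DMSO or to isorhamnetin (IR) at 10 µM, which made 6 groups of 2 libraries. The flavonol isorhamnetin is found in plants as a methylated form of quercetin. Rictor belongs to mTORC2, the kinase complex that phosphorylates Akt, and GATA3 is a transcription factor known above all for T helper cell development. The labels do not say how many clones stand behind a knockout line or whether libraries came from separate cultures. The knockout and the history of the line cannot be told apart, and p-values reflect differences among libraries that may be technical repeats.

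FoxO factors carry a forkhead DNA-binding domain. When insulin or growth factors activate PI3K and Akt, Akt phosphorylates FoxO proteins, which then bind 14-3-3 proteins and leave the nucleus. With low Akt activity they stay in the nucleus and activate genes of cell cycle arrest, autophagy, antioxidant defence and insulin sensitivity, among them the insulin receptor gene. In macrophages, Foxo1 is known for a part in inflammatory gene expression. RNA levels do not report where the FoxO proteins were or how they were modified, and neither was measured.

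The promoter windows below are shown because each holds a match to a FoxO element and belongs to 1 of the 2 target genes that differed between GATA3-KO and WT with DMSO whichever library was left out. Of the 10 genes, 8 had an entry among the RefSeq promoter windows of GRCm38.p6, which run from 250 bases before the start of a gene to 50 bases after it, 9 windows in all. Both windows shown lie on the plus strand and are written 5′ to 3′. The capitals mark matches: in Txnip (chr3:96557707-96558006) first the long FoxO element GTAAACAA and then a carbohydrate response element, and in Ccng2 (chr5:93267323-93267622) an insulin response element.
Txnip: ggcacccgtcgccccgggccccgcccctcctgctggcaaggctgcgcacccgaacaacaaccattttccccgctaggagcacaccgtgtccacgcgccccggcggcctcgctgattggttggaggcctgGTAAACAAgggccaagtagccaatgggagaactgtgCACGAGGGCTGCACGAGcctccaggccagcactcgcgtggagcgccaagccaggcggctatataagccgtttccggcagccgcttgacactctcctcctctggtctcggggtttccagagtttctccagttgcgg
Ccng2: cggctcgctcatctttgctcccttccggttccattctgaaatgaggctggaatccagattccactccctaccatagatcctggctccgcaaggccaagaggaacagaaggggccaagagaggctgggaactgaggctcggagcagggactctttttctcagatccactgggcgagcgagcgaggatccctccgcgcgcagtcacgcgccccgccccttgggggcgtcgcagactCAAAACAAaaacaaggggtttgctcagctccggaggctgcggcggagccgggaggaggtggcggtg

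Matches were searched on both strands. The Txnip match to GTAAACAA begins 121 bases before the start and contains the shorter core GTAAACA. The long form was present in 1.23% of 32851 windows and the core in 3.65%. The Txnip match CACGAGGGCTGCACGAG begins 85 bases before the start and follows the pattern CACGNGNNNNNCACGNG, which 0.0487% of windows held. Such elements are known to bind the glucose-sensing factors MondoA and ChREBP. The Ccng2 match CAAAACAA begins 16 bases before the RefSeq start, at 93267557, and 2.51% of windows held that word. By the gene position given below, Ccng2 begins earlier, at 93267257, so that the match lies inside the gene as annotated there. The window of Irs2 held the same word on the opposite strand, 38 bases before the start, and an E box, CACGTG, 44 bases before it. A window of Bcl6 held CACGTG 60 bases before the start, a word found in 7.15% of all windows. Of the 9 windows of these genes, 1 held the FoxO core and 2 held CAAAACAA. Those of Foxo1, Foxo3, Pik3ip1 and Sesn3 held none of the words searched for. A match is a description of the letters, not a shown binding site.

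Exon reads numbered 35671457 to 53099804 per library and intron reads 2251701 to 3510219. Levels are given as CPM, for which library totals were adjusted by TMM factors. The 10 macrophage markers were detected in every library, and their summed level moved with the groups. It was 10894 and 11051 CPM in WT with DMSO, 7216 and 6660 CPM in WT with isorhamnetin, 3095 to 5456 CPM in rictor-KO and 2793 to 3396 CPM in GATA3-KO. In rictor-KO, replicate 1 stood at 5411 and 5456 CPM with DMSO and isorhamnetin, and replicate 2 at 3095 and 3261 CPM. With DMSO, 6 of these 10 were lower than in WT in each knockout line and 0 higher. Of all genes tested, 40.0% differed in rictor-KO and 53.9% in GATA3-KO. The 4 epithelial markers were at 0 in every library. T cell markers summed to at most 4.75 CPM. Of these, Cd3e, Cd3g, Cd2 and Trac were at 0 in every library, Cd3d had 13 exon reads in all and the kinase gene Lck 1290. Lck was lower in WT with isorhamnetin than with DMSO (log2 -1.09, adjusted p = 0.0158) and in rictor-KO than in WT with DMSO (log2 -1.09, adjusted p = 0.0150). B cell markers summed to at most 0.443 CPM, granulocyte markers to 0.294 CPM and fibroblast markers to 0.148 CPM. The WT libraries with DMSO stood apart in the summed level of 12 activation genes of macrophages, such as Il1b and Tnf. These summed to 10211 to 12110 CPM there and to 537 to 1241 CPM in the other 10 libraries. Singly, 12 of 12 fell in WT with isorhamnetin (38.1% of all genes tested were called). Against WT with DMSO, 10 were lower and 1 higher in rictor-KO (40.0%), and likewise in GATA3-KO (53.9%). The part of these and of the macrophage markers in results against WT was not tested. Of the targeted genes, with DMSO, Rictor had 60.8 and 63.0 CPM in WT, 34.3 and 31.2 CPM in rictor-KO, and 36.2 and 32.3 CPM in GATA3-KO. Gata3 had 1.15 and 1.60 CPM in WT, 0.707 and 0.331 CPM in rictor-KO, and 0.282 and 0.292 CPM in GATA3-KO. With isorhamnetin it had 0.908 and 0.814 CPM in WT, 0.418 and 0.496 CPM in rictor-KO, and 0.498 and 0.460 CPM in GATA3-KO. Gata3 was called lower in GATA3-KO than in WT with DMSO (adjusted p = 0.00388, edgeR) but not with isorhamnetin (adjusted p = 0.188). It had only 11 to 57 exon reads per library. In these bulk libraries, fewer cells of a kind and less RNA per cell cannot be told apart.

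In GRCm38, Foxo1 (ENSMUSG00000044167) lies on chromosome 3 from 52268336 to 52353221. Foxo3 (ENSMUSG00000048756) lies on chromosome 10 from 42181841 to 42276755, and Foxo4 (ENSMUSG00000042903) on the X chromosome from 101254528 to 101260873. Of the targets, Insr (ENSMUSG00000005534) lies on chromosome 8 from 3122061 to 3279617, Bcl6 (ENSMUSG00000022508) on chromosome 16 from 23965052 to 23988852, Ccng2 (ENSMUSG00000029385) on chromosome 5 from 93267257 to 93276231 and Txnip (ENSMUSG00000038393) on chromosome 3 from 96557957 to 96561883. All are annotated as protein-coding. The annotated genes that overlap Foxo1 and Bcl6 had no read in any library. A gene that overlaps Gata3 on the same strand, 9230102O04Rik, had 63 exon reads over the 12 libraries.

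The genes differed widely in level. On the authors' deposited TPM scale, which takes account of transcript length, the median over the 12 libraries was 218 for Txnip, 40.0 for Bcl6, 14.9 for Foxo3, 10.7 for Ccng2, 8.67 for Foxo4, 4.35 for Insr, 2.28 for Foxo1 and 0.206 for Pik3ip1. Among the FoxO genes, Foxo3 was thus the most abundant transcript per length in these cells. Foxo6, the remaining FoxO gene, had no exon or intron read in any library. Irs2, which encodes an adaptor between the insulin receptor and PI3K, also had none. A count of 0 allows up to 3 reads, or 0.0553 to 0.0882 CPM per library, by counting error alone. Sesn3, a stress-induced regulator of mTORC1, had 16 and 2 exon reads in the WT libraries with isorhamnetin and none in the other 10. Pik3ip1, which encodes an inhibitor of PI3K, had 0 to 26 exon reads per library and 149 in all. Its lowest value, 0 CPM, and its highest, 0.612 CPM, both occurred in rictor-KO with DMSO, and it passed the test in no comparison of exon reads.

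**Figure D1:**
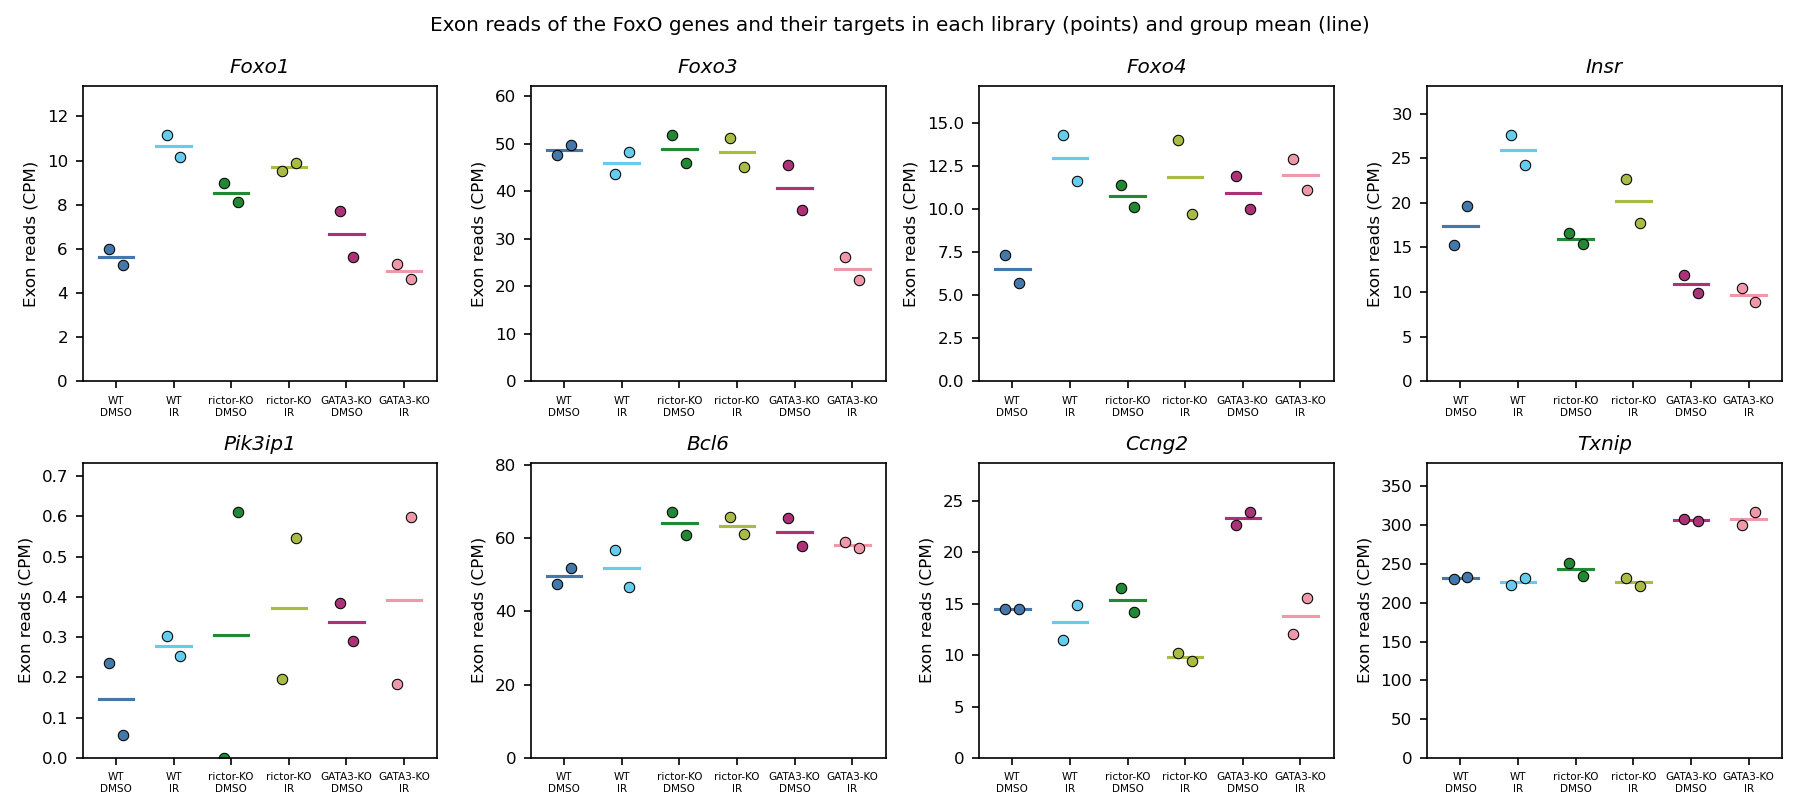
Exon reads in CPM (vertical axes, each from 0) of the 8 tested genes in each of 12 libraries (points), by genotype and treatment (horizontal axis), with the group mean as a line. Foxo4 was lowest in the 2 WT libraries with DMSO, at 7.32 and 5.73 CPM, Foxo3 in GATA3-KO with isorhamnetin, at 26.1 and 21.3 CPM, and Txnip was highest in the 4 GATA3-KO libraries.

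In WT cells, isorhamnetin raised the RNA of Foxo1, Foxo4 and Insr. These were 3 of the 8 tested genes, and 38.1% of all 11808 genes tested were called in the same comparison (19.8% higher). Foxo1 stood at 5.99 and 5.28 CPM with DMSO and at 11.1 and 10.2 CPM with isorhamnetin. The levels did not overlap, and the log2 fold change was 0.92 (SE 0.18, adjusted p = 0.00127, edgeR quasi-likelihood test), or 1.89-fold. Foxo4 stood at 7.32 and 5.73 CPM with DMSO and at 14.3 and 11.7 CPM with isorhamnetin. Its rise was 1.99-fold (log2 0.99, SE 0.20, adjusted p = 0.00131). Insr, the insulin receptor, stood at 15.3 and 19.6 CPM with DMSO and at 27.6 and 24.3 CPM with isorhamnetin. It rose 1.48-fold (log2 0.57, SE 0.16, adjusted p = 0.0126), a call lost without replicate 1 of either WT group (adjusted p up to 0.148).

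Foxo3, the most abundant of the family, did not pass the test in WT. It stood at 47.6 and 49.6 CPM with DMSO and at 43.6 and 48.3 CPM with isorhamnetin, so the groups overlapped (log2 fold change -0.08, SE 0.13). Bcl6, Ccng2 and Txnip overlapped between the treatments as well, with log2 fold changes of 0.06 (SE 0.11), -0.13 (SE 0.16) and -0.03 (SE 0.08). In the authors' deposited table for WT, Foxo4, Foxo1 and Insr had log2 fold changes of 1.00, 0.92 and 0.57, with false discovery rates of 3.44e-07, 0.000182 and 8.63e-05.

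In GATA3-KO cells, isorhamnetin lowered Foxo3 and Ccng2, and no tested gene rose. These were 2 of 8, where 26.2% of all genes tested were called (15.9% lower). Foxo3 stood at 45.4 and 36.0 CPM with DMSO and at 26.1 and 21.3 CPM with isorhamnetin, the lowest levels of this gene in the 12 libraries. That is a log2 change of -0.78 (SE 0.13, adjusted p = 0.00138). Ccng2, an unconventional cyclin linked to cell cycle arrest, stood at 22.7 and 23.9 CPM with DMSO and at 12.1 and 15.5 CPM with isorhamnetin. It fell by 0.76 (SE 0.15, adjusted p = 0.00388). Both calls were kept when any 1 library was left out, and when both WT libraries with DMSO were. The authors' deposited table for GATA3-KO gave -0.76 for Foxo3 and -0.75 for Ccng2, with false discovery rates of 2.86e-07 and 1.32e-06.

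Foxo1 in GATA3-KO stood at 7.71 and 5.62 CPM with DMSO and at 5.33 and 4.65 CPM with isorhamnetin (log2 fold change -0.41, SE 0.18, adjusted p = 0.109). The groups did not overlap, but the difference did not pass the test. It was called without replicate 2 of GATA3-KO with DMSO. Foxo4 stood at 11.9 and 10.0 CPM with DMSO and at 12.9 and 11.1 CPM with isorhamnetin, and Insr at 11.9 and 9.87 CPM against 10.5 and 8.84 CPM. Both overlapped between treatments.

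In rictor-KO cells, none of the 8 genes passed the test with edgeR, where 1.91% of all genes tested were called. At an unadjusted p under 0.05 there was 1, Ccng2, which was also the 1 gene called by DESeq2, where 3.56% of all genes tested were. Ccng2 stood at 16.6 and 14.2 CPM with DMSO and at 10.2 and 9.43 CPM with isorhamnetin, without overlap (log2 fold change -0.65, SE 0.16, adjusted p = 0.0526). The adjusted p lay close to the threshold and passed it without either WT or either GATA3-KO library with isorhamnetin. The authors' deposited table for rictor-KO gave -0.64 for Ccng2, with a false discovery rate of 0.61, the lowest of the members there. Foxo1 stood at 8.98 and 8.11 CPM against 9.55 and 9.88 CPM, Foxo4 at 11.4 and 10.1 against 14.0 and 9.73 CPM, and Insr at 16.6 and 15.4 against 22.7 and 17.7 CPM. Their log2 fold changes were 0.19 (SE 0.18), 0.14 (SE 0.19) and 0.34 (SE 0.16).

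**Figure D2:**
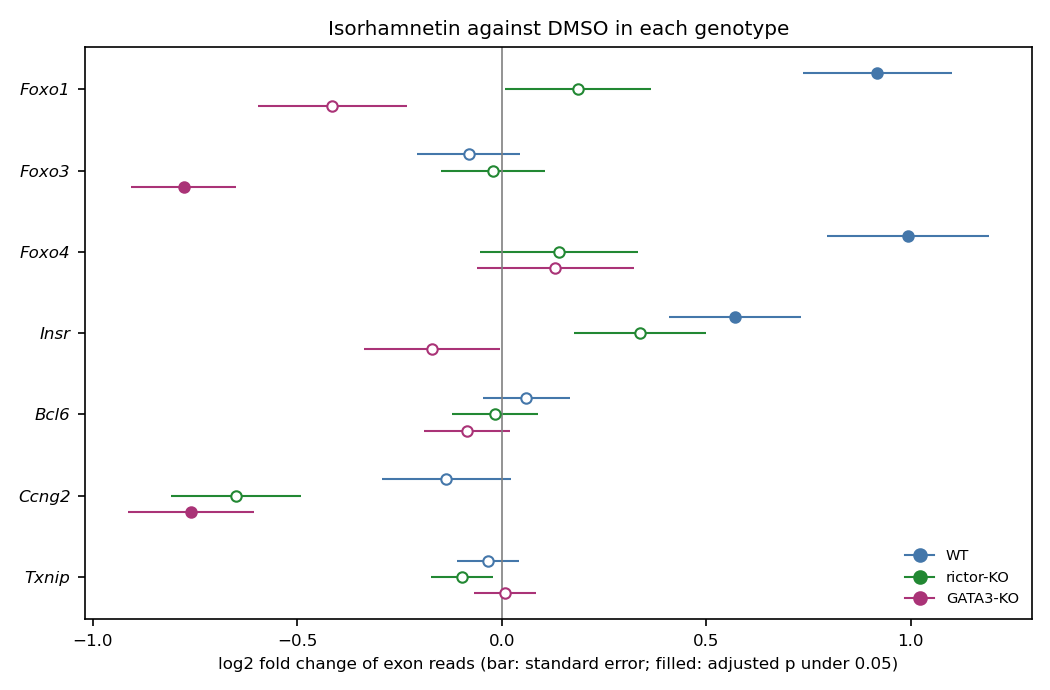
Log2 fold change of exon reads with isorhamnetin against DMSO (horizontal axis) in WT, rictor-KO and GATA3-KO for 7 genes (vertical axis), with standard errors as bars and filled points where the adjusted p was under 0.05. Pik3ip1 is left out because of its few reads. The 3 filled WT points (Foxo1, Foxo4, Insr) lie to the right of 0 and the 2 filled GATA3-KO points (Foxo3, Ccng2) to the left.

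The difference between responses was tested directly. The response of GATA3-KO was lower than that of WT for 5 of 8 genes, where 28.0% of all genes tested differed (15.5% lower). The difference was -1.33 for Foxo1 (SE 0.26, adjusted p = 0.00220), -0.86 for Foxo4 (SE 0.28, adjusted p = 0.0316), -0.74 for Insr (SE 0.23, adjusted p = 0.0290), -0.70 for Foxo3 (SE 0.18, adjusted p = 0.0116) and -0.62 for Ccng2 (SE 0.22, adjusted p = 0.0474), all on the log2 scale. These calls held unequally: Foxo1 was called with any 1 library left out, while without replicate 1 of GATA3-KO with DMSO it was the 1 gene left. The Ccng2 call was lost without any 1 of 6 libraries, and the Insr and Foxo4 calls without any 1 of 4 (adjusted p up to 0.231, 0.140 and 0.143). The Foxo3 call was lost without replicate 2 of WT with isorhamnetin or either of 2 GATA3-KO libraries, replicate 1 with DMSO and replicate 2 with isorhamnetin (adjusted p up to 0.0706). The response of rictor-KO differed from that of WT for 0 of 8 genes with edgeR, where 13.8% of all genes tested differed. At an unadjusted p under 0.05 there were 3, and DESeq2 called 1, Foxo4, where 16.6% of all genes tested were called. The differences nearest to the threshold were -0.85 for Foxo4 (SE 0.28, adjusted p = 0.0549) and -0.73 for Foxo1 (SE 0.25, adjusted p = 0.0730). A fit with a replicate block, described below, called more for rictor-KO, both among these 8 genes and over all genes. All of these differences share the WT libraries, those with high activation genes included.

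The lines were also compared without isorhamnetin, where the counts of these genes that differed in either direction lay near the share over all genes. With DMSO, Foxo1, Foxo4 and Bcl6 were higher in rictor-KO than in WT, 3 of 8 tested genes, where 40.0% of all genes tested differed (19.3% higher). Foxo4 was 1.65-fold higher (log2 0.72, SE 0.20, adjusted p = 0.00974), Foxo1 1.52-fold (log2 0.60, SE 0.18, adjusted p = 0.0176) and Bcl6 1.29-fold (log2 0.37, SE 0.11, adjusted p = 0.0133). All 3 calls were lost without replicate 1 of rictor-KO with DMSO. Foxo1 and Foxo4 were also lost without replicate 2 of WT with DMSO, and Bcl6 without replicate 1. With isorhamnetin in both lines, 0 of 8 genes differed between rictor-KO and WT with edgeR, where 22.0% of all genes tested did, and 0 with DESeq2, where 24.0% did. Of the 8, 3 had an unadjusted p under 0.05. Foxo1 then stood at 9.55 and 9.88 CPM in rictor-KO and at 11.1 and 10.2 CPM in WT.

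GATA3-KO differed from WT with DMSO in 5 of 8 genes, where 53.9% of all genes tested differed. Txnip, an alpha-arrestin that binds thioredoxin and limits glucose uptake, stood at 231 and 234 CPM in WT and at 309 and 305 CPM in GATA3-KO. It was 1.32-fold higher (log2 0.40, SE 0.08, adjusted p = 0.000501). Ccng2 stood at 14.5 CPM in both WT libraries and at 22.7 and 23.9 CPM in GATA3-KO, 1.61-fold higher (log2 0.69, SE 0.16, adjusted p = 0.00191). Both calls held with any 1 library left out. Insr was lower, at 11.9 and 9.87 CPM against 15.3 and 19.6 CPM (log2 -0.68, SE 0.17, adjusted p = 0.00306). Foxo4 was 1.68-fold higher (log2 0.75, adjusted p = 0.00539). The Insr and Foxo4 calls were lost without replicate 2 of WT with DMSO (adjusted p up to 0.0574 and 0.0720). Bcl6 was 1.24-fold higher (log2 0.31, adjusted p = 0.0230), a call lost without replicate 1 of either group.

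With isorhamnetin in both lines, 4 of 8 genes differed between GATA3-KO and WT, where 61.6% of all genes tested did. Insr stood at 27.6 and 24.3 CPM in WT and at 10.5 and 8.84 CPM in GATA3-KO, a log2 difference of -1.42 (SE 0.17, adjusted p = 5.17e-06). Foxo1 was lower by a log2 difference of -1.09 (SE 0.18, adjusted p = 0.000122) and Foxo3 by one of -0.95 (SE 0.13, adjusted p = 1.96e-05). Txnip was higher, at 300 and 317 CPM against 222 and 232 CPM (log2 0.44, SE 0.08, adjusted p = 0.000162). All 4 calls held with any 1 library left out, and without both WT libraries with DMSO. Ccng2 stood at 12.1 and 15.5 CPM in GATA3-KO and at 11.5 and 14.9 CPM in WT, so its higher level with DMSO was not seen there (log2 0.06, SE 0.16).

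The knockout lines were also set against each other with DMSO, a comparison that uses no WT library. GATA3-KO was higher in Txnip (log2 0.34, SE 0.08, adjusted p = 0.00462) and Ccng2 (log2 0.60, SE 0.15, adjusted p = 0.0101) and lower in Insr (log2 -0.56, SE 0.17, adjusted p = 0.0211). These were 3 of 8 genes, where 30.1% of all genes tested differed. The Txnip call held with any 1 library left out. Those of Ccng2 and Insr were lost without replicate 2 of GATA3-KO, and also without replicate 2 of rictor-KO for Ccng2 and replicate 1 for Insr (adjusted p up to 0.0738 and 0.184).

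**Figure D3:**
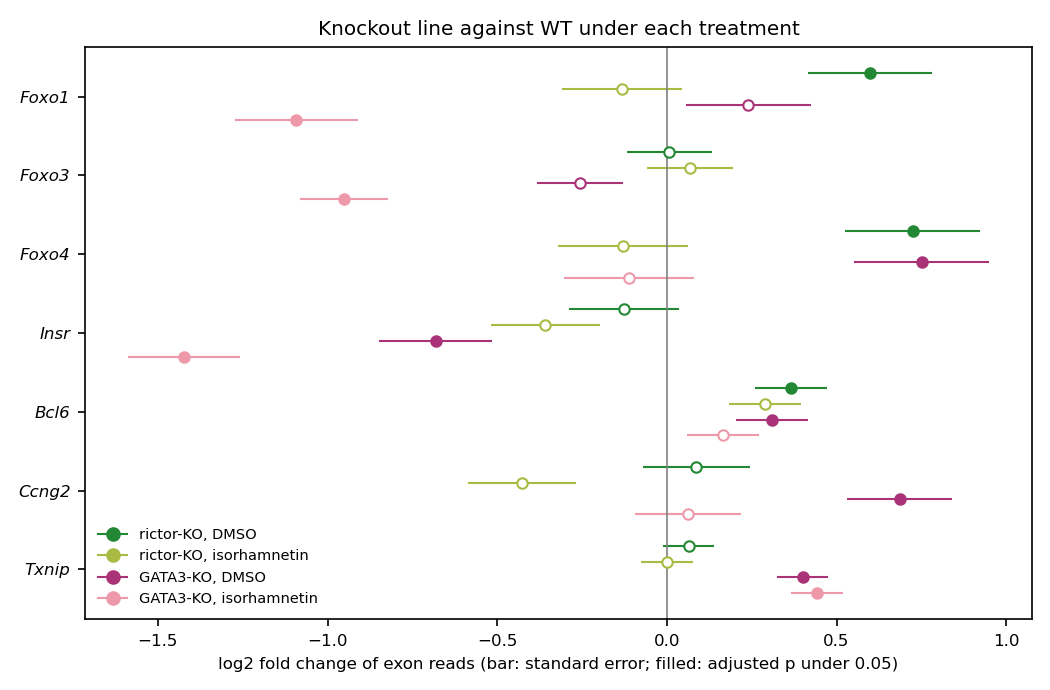
Log2 fold change of exon reads in each knockout line against WT under the same treatment (horizontal axis) for 7 genes (vertical axis), with standard errors as bars and filled points where the adjusted p was under 0.05. Insr and Foxo1 lie furthest to the left in GATA3-KO with isorhamnetin, at -1.42 and -1.09, and Txnip lies to the right of 0 in GATA3-KO under both treatments, at 0.40 and 0.44.

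Ordered by group mean, Foxo1 ran from 10.7 CPM (SD 0.704) in WT with isorhamnetin through 9.72 (SD 0.232) and 8.54 (SD 0.616) in rictor-KO with isorhamnetin and DMSO to 6.66 (SD 1.48) in GATA3-KO with DMSO, 5.64 (SD 0.506) in WT with DMSO and 4.99 (SD 0.481) in GATA3-KO with isorhamnetin, n = 2 each. Of the tests between neighbours in that order, those of WT against rictor-KO with isorhamnetin, of rictor-KO between treatments, of the knockout lines with DMSO and of GATA3-KO against WT with DMSO did not pass. The last pair, WT with DMSO and GATA3-KO with isorhamnetin, was not tested. Foxo4 had 1 low group, WT with DMSO at 6.52 CPM (SD 1.12), and 5 groups with means of 10.8 to 13.0 CPM. Foxo3 likewise had 1 low group, GATA3-KO with isorhamnetin at 23.7 CPM (SD 3.38), and 5 with means of 40.7 to 48.8 CPM. Txnip fell into 2 levels, 227 to 243 CPM in WT and rictor-KO and 307 and 309 CPM in GATA3-KO. Bcl6 had the smallest range after Txnip, with 1.44 times between its lowest and highest library against 1.43 for Txnip and 3.12 for Insr.

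Intron reads, which come mostly from unspliced RNA, gave a second readout with fewer reads. For Bcl6, a transcriptional repressor of the germinal centre reaction that also restrains inflammatory genes in macrophages, they differed from the exon reads. In WT, Bcl6 intron reads were at 117 and 118 CPM of intron reads with DMSO and fell to 75.5 and 60.6 CPM with isorhamnetin. The log2 fold change was -0.79 (SE 0.18, adjusted p = 0.00171), the 1 call among 8 genes tested, where 14.7% of 11450 genes were called (7.29% lower). Leaving out replicate 2 of WT with isorhamnetin lost the call (adjusted p = 0.0660). The exon reads of Bcl6 overlapped between the same groups, at 47.5 and 51.9 CPM with DMSO and 56.9 and 46.8 CPM with isorhamnetin. In rictor-KO with DMSO, Bcl6 intron reads stood at 75.5 and 81.4 CPM, lower than in WT (log2 -0.58, SE 0.17, adjusted p = 0.0167, the 1 call of 8, where 18.0% of genes were called and 9.14% were lower), while its exon reads were higher. That intron call was lost without either WT library or replicate 1 of rictor-KO (adjusted p up to 0.104).

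**Figure D4:**
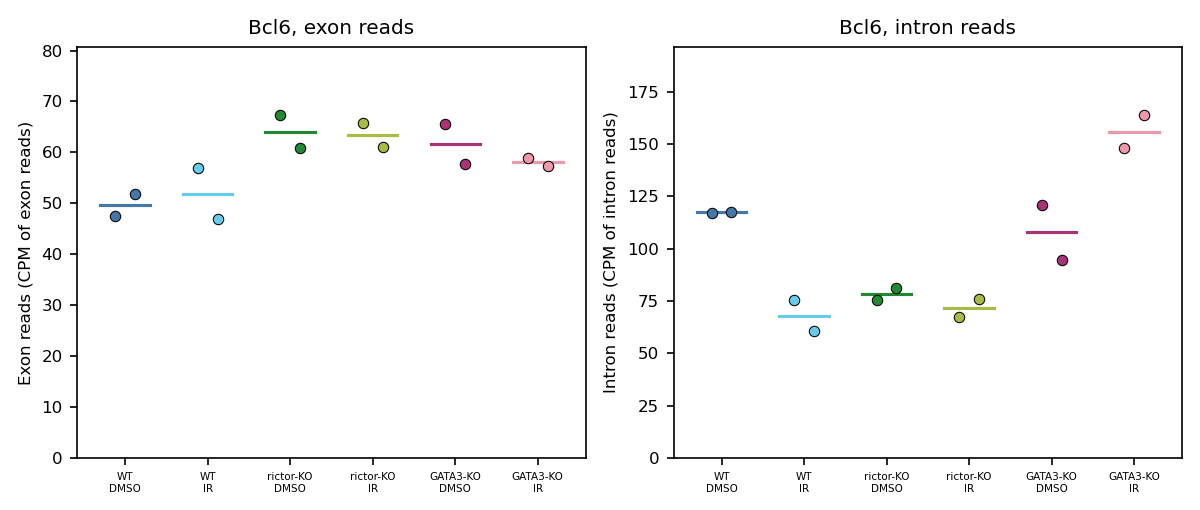
Bcl6 exon reads (left, CPM of exon reads) and intron reads (right, CPM of intron reads) in each of 12 libraries (points) with the group mean as a line, vertical axes from 0. In WT with DMSO, intron reads are at 117 and 118 CPM, against 60.6 to 81.4 CPM in the other WT and rictor-KO libraries, while exon reads span 46.8 to 67.2 CPM over all 12.

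The ratio of exon to intron CPM was then tested with limma for 10033 genes, a measure added after these values were seen. It was higher for Bcl6 in WT with isorhamnetin than with DMSO (log2 0.85, SE 0.18, adjusted p = 0.00951), where 1.54% of genes were called (0.588% higher). It was also higher in rictor-KO than in WT with DMSO (log2 0.95, SE 0.18, adjusted p = 0.00255), where 2.04% were (0.787% higher). Bcl6 was the 1 gene of 6 tested in each. The first call was lost without replicate 1 of WT with DMSO or replicate 2 of WT with isorhamnetin (adjusted p up to 0.0994), and the second without replicate 1 of rictor-KO (adjusted p = 0.0563). Both rest on the WT libraries with DMSO. In GATA3-KO, Bcl6 intron reads stood at 121 and 94.7 CPM with DMSO and at 148 and 164 CPM with isorhamnetin (log2 fold change 0.54, SE 0.17, adjusted p = 0.117), and the ratio difference was -0.62 (SE 0.18, adjusted p = 0.0773). With edgeR, 0 of 8 genes were called by intron reads in that comparison, where 1.6% were, with 1 at an unadjusted p under 0.05. In rictor-KO with isorhamnetin 0 were called by edgeR, where 0.524% of genes were, and 0 had an unadjusted p under 0.05.

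Intron reads of GATA3-KO against WT with DMSO differed for 4 of 8 genes, where 31.7% of genes were called. Foxo4 intron reads were higher, at 30.0 and 20.8 CPM against 8.72 and 11.6 CPM (log2 1.30, SE 0.41, adjusted p = 0.0140), and those of Insr lower, at 16.7 and 9.24 against 19.6 and 30.2 CPM (log2 -0.98, SE 0.36, adjusted p = 0.0347). Each of these calls was lost without either of 2 libraries (adjusted p up to 0.149 and 0.377). Both have the sign of the exon difference. The remaining calls, Foxo1 and Pik3ip1, were lower by intron reads, while their exon log2 differences were 0.24 and 1.21 and not called. Foxo1 had 0 intron reads in GATA3-KO with DMSO and 15 in WT, 14 of them in replicate 2. Pik3ip1 had 0 and 21. These numbers are too small to describe further. Txnip intron reads stood at 38.8 and 58.9 CPM in GATA3-KO and at 56.7 and 44.4 CPM in WT, overlapping where the exon reads did not (ratio difference 0.47, SE 0.25, adjusted p = 0.217).

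Of 42 other FoxO targets, 31 were tested, and 12 rose and 7 fell in WT with isorhamnetin (median log2 fold change 0.15, against 0.01 over all genes). That is 19 of 31, where 38.1% of all genes tested were called. Rbl2, a pocket protein that holds cells in quiescence, rose from 12 CPM (SD 1.73) to 28.2 CPM (SD 2.59), a log2 change of 1.23 (SE 0.12, adjusted p = 3.53e-06). Cat, the antioxidant enzyme catalase, rose by 1.77 in WT, 1.39 in rictor-KO and 1.12 in GATA3-KO (adjusted p = 0.000154, 0.00786 and 0.00484). Sod2, the mitochondrial superoxide dismutase, fell by 0.88 in WT, from 350.0 to 190.0 CPM, and the cell cycle inhibitor Cdkn1a fell by 1.26, from 322 to 135 CPM. In rictor-KO 3 targets rose and 1 fell, where 1.91% of all genes were called. The one that fell was Bnip3, a mitophagy receptor, by 1.14 (adjusted p = 0.000251). In GATA3-KO 5 rose and 3 fell, where 26.2% of all genes were called. The autophagy genes Map1lc3b and Gabarapl1 rose there by 0.64 and 0.46 (adjusted p = 0.00128 and 0.00328). The response differed from that of WT for Rbl2 in both knockout lines, by -1.19 in rictor-KO and -1.28 in GATA3-KO (adjusted p = 0.000471 and 0.000159). With DMSO, however, Rbl2 already stood at 28.0 CPM (SD 0.850) in rictor-KO and 27.7 CPM (SD 0.396) in GATA3-KO, near its WT level with isorhamnetin. Over all 31 targets, the response was higher than in WT for 5 and lower for 5 in rictor-KO (13.8% of all genes differed), and higher for 8 and lower for 5 in GATA3-KO (28.0%). Against WT with DMSO, 7 targets were higher and 12 lower in rictor-KO (40.0% of all genes differed), and 10 were higher and 11 lower in GATA3-KO (53.9%).

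Upstream, 28 of 31 genes of the PI3K and Akt pathway were tested. In WT with isorhamnetin 7 rose and 4 fell (median 0.14), which is near the share of 38.1% over all genes. Pik3r2, a regulatory subunit of PI3K, rose by 0.88 (SE 0.13, adjusted p = 0.000104) and Phlpp1, a phosphatase of Akt, by 0.93 (SE 0.15, adjusted p = 0.000235). In GATA3-KO 2 rose and 11 fell (median -0.24, against 0.00 over all genes), where 26.2% of all genes were called and 15.9% fell. Inpp5d, the lipid phosphatase SHIP1, fell by 0.74 (adjusted p = 0.00108) and Pik3cd, a catalytic subunit of PI3K in leukocytes, fell by 0.61 (adjusted p = 0.00122). Mtor and Tsc2 fell by 0.43 and 0.52. In rictor-KO, where 1.91% of all genes were called, 0 rose and 1 fell, Rictor itself (log2 -0.48, adjusted p = 0.0136, edgeR). Rictor also fell in WT (log2 -0.46, adjusted p = 0.00117) and in GATA3-KO (log2 -0.29, adjusted p = 0.0347). Its call in rictor-KO was lost without any 1 of 3 libraries, and that in GATA3-KO without any 1 of 5. The response of GATA3-KO was below that of WT for 16 of 28 and above it for 1, where 28.0% of all genes differed and 15.5% were below. With isorhamnetin 22 of 28 were lower in GATA3-KO than in WT and 2 higher (median -0.60), where 61.6% of all genes differed in either direction. Members that lower PI3K or Akt signalling, such as Inpp5d, and members that carry it, such as Pik3cb and Mtor, were both among them, with log2 differences of -1.43, -1.41 and -0.71.

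Genes whose products modify or retain FoxO proteins were all tested, 22 of 22. In WT 3 rose and 4 fell with isorhamnetin, where 38.1% of all genes were called. Ywhag, a 14-3-3 protein, fell by 0.64 (SE 0.10, adjusted p = 0.000157). In GATA3-KO 1 rose and 7 fell, where 26.2% of all genes were called, including the acetyltransferase Ep300 by 0.54 and the kinase Stk4 by 0.38 (adjusted p = 0.00251 and 0.00356). In rictor-KO 0 were called by edgeR and 0 by DESeq2, where 1.91% and 3.56% of all genes were. At an unadjusted p under 0.05 there were 2. With DMSO, the acetyltransferase Crebbp stood at 24.9 CPM (SD 6.68) in GATA3-KO and 73.8 CPM (SD 1.54) in WT, a log2 difference of -1.57 (SE 0.14, adjusted p = 6.46e-07).

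Of the 11 Mondo factors, alpha-arrestins and thioredoxin genes, which lie nearest to Txnip in function, Mlxip, which encodes MondoA, fell in WT and GATA3-KO by 0.54 and 0.55 (adjusted p = 0.000616 and 0.00198). Txnrd1, thioredoxin reductase, rose by 0.62 in WT, 1.02 in rictor-KO and 0.72 in GATA3-KO. In all, 2 rose and 4 fell in WT (38.1% of all genes were called), 1 rose in rictor-KO (1.91%), and 2 rose and 1 fell in GATA3-KO (26.2%). Arrdc3, another alpha-arrestin, was higher in GATA3-KO than in WT with DMSO, at 24.2 CPM (SD 0.464) against 9.94 CPM (SD 0.908), as Txnip was. Most of the list went the other way there, with 2 of 11 higher and 6 lower (median -0.28), where 53.9% of all genes tested differed. Mlxip was lower in the same comparison, by a log2 difference of -0.86.

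Of 8 cofactors and counterparts of BCL6, 6 were tested. In WT 2 rose and 1 fell, where 38.1% of all genes were called. The one that fell was Bcl6b, a close relative of Bcl6, from 48.7 CPM (SD 3.07) to 5.42 CPM (SD 3.57). In GATA3-KO 1 fell, the corepressor Ncor1, by 0.54 on the log2 scale (adjusted p = 0.00169), where 26.2% of all genes were called. In rictor-KO 0 were called by edgeR and 0 by DESeq2, where 1.91% and 3.56% of all genes were. At an unadjusted p under 0.05 there were 0. Prdm1, which encodes Blimp-1, a mutual antagonist of BCL6 in lymphocytes, was higher in GATA3-KO than in WT with DMSO, at 4.61 CPM (SD 0.431) against 0.429 CPM (SD 0.108).

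As a description over the 12 libraries, which share genotype and treatment groups, the genes most like each member in log2 CPM were sought among 7614 well-expressed genes. They were Eif4ebp2 (r = 0.978), Mical3 (0.974) and Zfp36l2 (0.971) for Foxo1, and Sf3b2 (0.992), Scamp2 (0.990) and Cad (0.990) for Foxo3. For Foxo4 they were Wdr90 (0.942), Tpm1 (0.923) and Herc3 (0.922), for Insr Llgl1 (0.982), and for Txnip Cd320 (0.986). Bcl6 and Ccng2 had lower best values, 0.919 with Stard7 and 0.875 with Tpi1. Among the members, Insr and Foxo1 ran most closely together (r = 0.771) and Txnip and Insr most in opposition (r = -0.889).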

How the data were processed

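RNA of 12 libraries was grouped by the genotype and treatment that the labels give, 2 per group. For every gene the authors deposited read counts (exon, intron, unique) and TPM values. Positions are in GRCm38, as the submitters' processing notes name it. The aligner and the counter are not given in the sources used here. Deposited comparison tables with the authors' log2 fold changes and p-values for isorhamnetin in each genotype were only described.

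Total exon reads were fitted with edgeR 4.0.16 in R 4.3.3 (TMM, filterByExpr, robust quasi-likelihood F test, two-sided, 1 model with a mean per group), with Benjamini-Hochberg adjustment over 11808 genes within each of 10 contrasts, threshold 0.05. Intron reads were fitted likewise over 11450 genes, and exon to intron ratios with limma 3.58.1 (pseudocount 0.5 reads, mean of at least 10 intron reads). DESeq2 1.42.0, other filters, scalings, a replicate block and leaving out libraries were alternatives. "Rose", "fell", "higher" and "lower" refer to genes past the threshold, errors are SE of the fit or SD of 2 libraries, and a floor of 3 reads covers counting error only.

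The 10 members come from a fixed rule, but members, gene lists and tests were chosen with earlier results of these data known. All members are named, with Rictor, Gata3 and Foxo6, and of each list up to 4 genes per contrast by smallest p. Fewer were printed than the rule allows, and 1 gene of a list is not reported here. The 3 genes most like each member are by Pearson r among genes with a mean log2 CPM of at least 4. Exon reads of all detected members were 100% uniquely mapped. On simulated counts, the exon test in WT recovered 56% of 50 genes changed 1.5-fold and 82% of those changed 2-fold, with 13 false of 175 calls. The intron test recovered 8% and 48%, with 8 false of 106.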

Additional observations from a re-analysis of the deposited data

Results flagged for a closer look

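The response to isorhamnetin differed between GATA3-KO and WT cells for 5 of the 8 genes tested, by a test of the difference itself in edgeR, where 28.0% of all genes tested differed (15.5% lower). Of these 5 calls, only that of Foxo1 was left without replicate 1 of GATA3-KO with DMSO. The log2 response of GATA3-KO minus that of WT was -1.33 for Foxo1, -0.86 for Foxo4, -0.74 for Insr, -0.70 for Foxo3 and -0.62 for Ccng2. For Foxo1, Foxo4 and Insr both libraries with isorhamnetin lay above both with DMSO in WT, while in GATA3-KO the change was not called. For Foxo3 and Ccng2 the WT libraries overlapped between treatments and those of GATA3-KO did not. Activation genes of macrophages summed to 10211 to 12110 CPM in the WT libraries with DMSO and to at most 1241 CPM elsewhere, and their part in these differences was not tested.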

How the results depend on the processing

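No result about these genes reversed under any alternative tried. DESeq2, no filter on low counts, uniquely mapped exon reads and the replicate block each called 1 gene, Ccng2, in rictor-KO. DESeq2, no filter and unique reads each called 1, Foxo4, for the difference in response between rictor-KO and WT. Library sizes of the exon reads called 1 gene, Bcl6, by intron reads in GATA3-KO, and ended the intron call of Foxo4 in GATA3-KO against WT. The call of Ccng2 for the response of GATA3-KO minus that of WT was lost with DESeq2 (-0.61), its size factors (-0.60) or a mean of at least 2 CPM (-0.60). The causes were not tested. Leaving out 1 library at a time gave 0 to 1 calls for rictor-KO, 0 to 3 for rictor-KO against WT with DMSO, 0 to 2 with isorhamnetin, 3 to 5 for GATA3-KO against WT with DMSO, 1 to 4 between the knockout lines, 0 to 1 for the rictor-KO difference in response and 1 to 5 for that of GATA3-KO. By intron reads it gave 0 to 1 in WT, 0 to 1 for rictor-KO against WT and 1 to 4 for GATA3-KO against WT.

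Same-numbered libraries deviated together in rictor-KO and GATA3-KO (r = 0.80 and 0.69 over 7720 genes) but not in WT (-0.18). The numbers may thus pair samples in the knockout lines. The labels do not say so, and the main fit leaves such pairs out of account. With the replicate block, 1 gene was called in rictor-KO, 1 in rictor-KO against WT with isorhamnetin, 3 for the rictor-KO difference in response and 1 by intron reads in GATA3-KO. A crossed pairing in WT, chosen after seeing the data, gave 3 genes and 3942 of all genes for the rictor-KO difference and 5535 for that of GATA3-KO. Over all genes the block moved the calls from 226 to 1417 in rictor-KO, from 3092 to 5176 in GATA3-KO, and from 1624 to 3596 and from 3303 to 5321 for the differences in response of rictor-KO and GATA3-KO. In rictor-KO, DESeq2 called 420 genes and a fit of the compared groups alone 36. By intron reads, the 60 calls in rictor-KO became 33 with exon library sizes, 105 without a filter and 127 with the block, and the 183 in GATA3-KO became 401 with exon library sizes and 366 with the block. Leaving out 1 library moved the calls over all genes in GATA3-KO to between 544 and 3388 by exon reads and between 32 and 211 by intron reads. Depth limits Foxo1 and Pik3ip1 introns, Pik3ip1 and Sesn3.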

Other observations

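Among the other FoxO targets, Ccnd2, which encodes a D-type cyclin, differed widely between the lines. With DMSO it had 424 exon reads in the WT libraries (6.10 CPM, SD 0.561), 2 in those of rictor-KO and 3297 in those of GATA3-KO (41.2 CPM, SD 4.95). GATA3-KO was higher than WT by a log2 difference of 2.76 (SE 0.19, adjusted p = 6.33e-08, edgeR). S1pr1, a receptor for sphingosine-1-phosphate, had 1089 exon reads in WT with isorhamnetin (13.8 CPM, SD 8.85, so the 2 libraries differed widely) and 2 in each knockout line with isorhamnetin. Arrdc4, an alpha-arrestin related to Txnip, had 44 exon reads in WT with DMSO and 101 with isorhamnetin, and 0 in both knockout lines with DMSO. Bcl2l11, a pro-apoptotic BH3-only protein, was lower than in WT with DMSO by a log2 difference of -1.74 in rictor-KO and -2.01 in GATA3-KO (adjusted p = 6.97e-07 and 1.38e-07).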
